A study of Homo sapiens with 6 samples.

Results

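The genes described here are EREG and HBEGF, which encode ligands of the epidermal growth factor receptor (EGFR), and SPRY4, IER3, IL11 and VGF, which are known as genes induced by ERK signalling. They were picked by name, with the difference between NHE3kd and Ctrl cells already known, and all 6 had at least 1 probe set among the 14884 named genes. SK-CO15, an established line of human colon adenocarcinoma, was profiled on 6 arrays, of which replicates 1, 4 and 9 were Ctrl cells and replicates 2, 3 and 10 were NHE3kd cells. Both groups had been transduced with lentivirus that also carried EGFP and a puromycin resistance gene. Both were then sorted for high EGFP, selected in puromycin and kept as mixed populations. The Ctrl virus carried a scrambled shRNA and the NHE3kd virus several pooled shRNAs that target SLC9A3, which encodes the sodium-proton exchanger NHE3, all driven by the U6 promoter. RNA was taken from confluent, otherwise untreated cultures, and no source states that the 3 samples of a group were separate cultures, so the spread and the p-values below may reflect technical variation alone. No probe set carried the name SLC9A3, and the knockdown was therefore not analysed here.

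EGFR is activated by a family of ligands that are made as membrane proteins and cut from the cell surface by ADAM proteases, ADAM17 above all. The activated receptor signals through RAS, RAF and MEK to the kinase ERK, which switches on immediate early genes, growth factors and cytokines, among them ligands of EGFR itself. ERK also switches on its own inhibitors, the Sprouty proteins and the dual-specificity phosphatases (DUSPs). In the intestine the pathway is known for driving epithelial growth and repair.

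The deposited values are log2 values from which the authors had subtracted the mean of the Ctrl arrays, so each value is a difference from the Ctrl mean of its probe set and the Ctrl mean is 0 by construction. Expression levels cannot be read from them, neither between genes nor against background. By this limit the labelled cell type could not be checked by the level of its markers either. Of 11 measured markers of colonic epithelium, VIL1, which encodes villin, passed the test (log2 difference 0.77, adjusted p = 0.0017 from limma, higher in NHE3kd cells). Of 4 measured genes listed here as markers of other cell types LYZ, the lysozyme gene, passed (0.92, adjusted p = 0.023 from limma, higher). Among all named genes 14.5% passed in either direction. The epithelial markers KRT20 (-0.86, adjusted p = 0.081) and TFF3 (-0.29, adjusted p = 0.21, both from limma) lay lower on every NHE3kd array and did not pass. The part of these differences in the results below was not tested.

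EREG, HBEGF, SPRY4, IER3 and IL11 lay lower in NHE3kd than in Ctrl cells and VGF lay higher, with no overlap between the 3 arrays of each group for any of the 6. The log2 differences ran from -1.14 for EREG to 0.27 for VGF, with a median of -0.64 beside -0.00082 for all named genes. Since the genes were chosen for this contrast, their differences are a description without a test. Among all named genes the arrays of the groups did not overlap for 35.8%, with the NHE3kd arrays lower for 14.7% and higher for 21.1%.

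**Figure D1:**
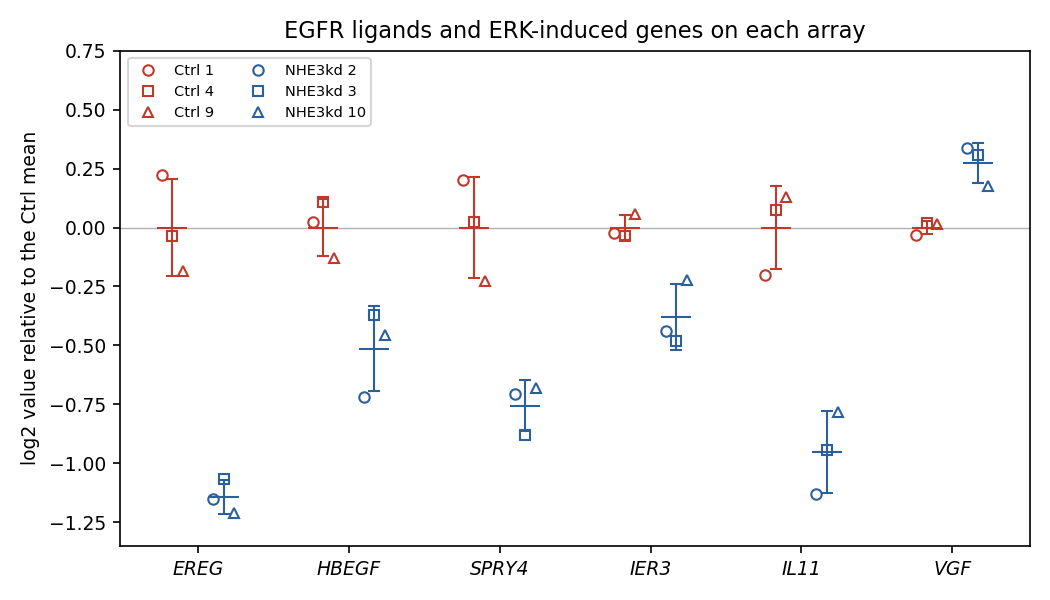
Log2 value of each gene relative to the Ctrl mean on the 3 Ctrl arrays (red) and the 3 NHE3kd arrays (blue). Horizontal bars are group means and whiskers are SD (n = 3); the NHE3kd arrays lie below all Ctrl arrays for EREG, HBEGF, SPRY4, IER3 and IL11 and above them for VGF.

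The promoters of EREG, IL11 and VGF are shown because these are the largest and second largest differences below 0 and the one above 0. The table of RefSeq promoters used here (GRCh38.p14) matched 5 of the 6 genes, all but IER3. The 250 bases before the start site are printed 5′ to 3′ on the strand of the gene, with capitals for matches to the motifs named below other than SP1. The arrays were annotated on another build (hg19), so the positions belong to the sequences and not to the probe sets.
EREG (chr4:74364895-74365144, + strand): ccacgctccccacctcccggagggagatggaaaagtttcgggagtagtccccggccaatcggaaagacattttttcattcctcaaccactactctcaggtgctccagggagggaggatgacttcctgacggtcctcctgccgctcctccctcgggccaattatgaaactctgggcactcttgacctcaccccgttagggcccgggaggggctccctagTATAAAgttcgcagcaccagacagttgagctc
IL11 (chr19:55370464-55370713, - strand): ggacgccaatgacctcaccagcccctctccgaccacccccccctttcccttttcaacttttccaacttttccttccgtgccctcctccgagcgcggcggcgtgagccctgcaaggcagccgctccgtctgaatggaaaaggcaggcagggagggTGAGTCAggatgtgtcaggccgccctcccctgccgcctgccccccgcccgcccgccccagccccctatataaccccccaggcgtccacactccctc
VGF (chr7:101165570-101165819, - strand): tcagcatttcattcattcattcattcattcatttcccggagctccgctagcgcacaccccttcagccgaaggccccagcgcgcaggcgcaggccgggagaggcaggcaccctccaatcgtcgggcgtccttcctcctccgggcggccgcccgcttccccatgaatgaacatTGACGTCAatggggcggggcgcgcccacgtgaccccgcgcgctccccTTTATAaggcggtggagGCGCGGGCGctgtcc

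Both strands were searched for the motif of AP-1, the dimer of FOS and JUN proteins, spelled TGANTCA, and for the cyclic AMP response element bound by CREB, or CRE, spelled TGACGTCA. The core of ETS factors was taken as CCGGAA and the TATA box as TATAAA. The zinc finger factors SP1 and EGR1 were represented by GGGCGG for the former and by GCGNGGGCG for the latter. The CArG box of serum response factor and the NF-kB site were searched as well. The IL11 promoter held an AP-1 match 96 to 90 bases before the start, a motif found in 6.57% of the 35116 promoters of that length. The VGF promoter held a CRE match 79 to 72 bases before the start (1.65% of all promoters), and also a TATA match on the opposite strand and an EGR1 match. In EREG the only match was TATA, 32 to 27 bases before the start (10.7% of all promoters). SPRY4 had an EGR1 match (8.41% of all promoters) and 1 SP1 match, and HBEGF had SP1 matches alone (42.6% of all promoters). No CArG box, ETS or NF-kB match was found in these 5 windows. Some SP1 matches overlapped one another in HBEGF and IL11, and no EGR1 match overlapped an SP1 match. These matches describe letters in a window and show no binding.

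Of the ligands, EREG encodes epiregulin, which binds EGFR and ERBB4. Its values were 0.22, -0.036 and -0.19 on Ctrl 1, 4 and 9 and -1.15, -1.07 and -1.21 on NHE3kd 2, 3 and 10. The NHE3kd arrays lay within 0.14 of one another, closer together than the Ctrl arrays, which spanned 0.41, and the gap between the groups was 0.88. EREG in NHE3kd cells was thus at 45.3% of Ctrl (2.21-fold lower, log2 difference -1.14, SE 0.13), the 126th lowest difference of the 14884 named genes.

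HBEGF encodes heparin-binding EGF-like growth factor, which also binds EGFR and ERBB4 and whose membrane form is the receptor of diphtheria toxin. It was at 0.021, 0.11 and -0.13 on Ctrl 1, 4 and 9 and at -0.72, -0.37 and -0.45 on NHE3kd 2, 3 and 10. NHE3kd 2 was the lowest array and stood apart from the other two, and the gap between the groups was 0.24, about as wide as the span of the Ctrl arrays. The difference was -0.51 (SE 0.13), or 70.0% of Ctrl.

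SPRY4 encodes a Sprouty protein, an inhibitor of signalling from receptor tyrosine kinases to ERK that ERK itself induces. The Ctrl arrays were at 0.20, 0.023 and -0.23 (replicates 1, 4 and 9), and the NHE3kd arrays at -0.71, -0.88 and -0.68 (replicates 2, 3 and 10). As for EREG, Ctrl 1 was the highest and Ctrl 9 the lowest Ctrl array, and the 3 NHE3kd arrays spanned less (0.20) than the 3 Ctrl arrays (0.43). The difference was -0.76 (SE 0.14), which is 59.2% of Ctrl.

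IER3 encodes a short-lived immediate early protein, also called IEX-1, that is phosphorylated by ERK and affects cell survival. It was measured by 11 probe sets, whereas each of the other 5 genes had 1. The mean of the 11 was -0.023, -0.036 and 0.059 on Ctrl 1, 4 and 9 and -0.44, -0.48 and -0.22 on NHE3kd 2, 3 and 10, so NHE3kd 10 lay nearest to the Ctrl arrays. The difference was -0.38 (SE 0.086), or 76.8% of Ctrl. The 11 probe sets held 4 distinct sets of values, 1 of them shared by 5 probe sets and another by 4, and are not independent measurements. Their differences were -0.35, -0.42, -0.40 and -0.42, all without overlap between the groups, and with each distinct set counted once the gene was at -0.40. The Ctrl arrays of the set shared by 5 probe sets had an SD of 0.0024 against 0.080 to 0.098 for the others.

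IL11 encodes interleukin-11, a cytokine that signals through its receptor IL11RA and the shared chain gp130. Its values were -0.20, 0.073 and 0.13 on Ctrl 1, 4 and 9, and -1.13, -0.94 and -0.78 on NHE3kd 2, 3 and 10. The groups were 0.58 apart at their nearest arrays, and they spanned similar ranges (0.33 and 0.35). Here Ctrl 1, the highest Ctrl array for EREG and SPRY4, was the lowest. The difference was -0.95 (SE 0.14), 51.7% of Ctrl and the second lowest of the 6 genes, at rank 187 of all named genes from the lowest.

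VGF encodes a secreted precursor of neuropeptides that is stored with the granins in neurons and endocrine cells and was named for its induction by nerve growth factor. It was the gene that went the other way. The Ctrl arrays lay at -0.032, 0.018 and 0.014 (replicates 1, 4 and 9) and the NHE3kd arrays at 0.34, 0.31 and 0.18 (replicates 2, 3 and 10). Its difference of 0.27 (SE 0.052), 1.21-fold, was the smallest of the 6 in size, and 17.2% of named genes had a higher one. The name given to the group as ERK-induced genes thus covers 1 gene whose direction opposed that of the rest.

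In the order EREG, IL11, SPRY4, HBEGF and IER3, the steps between neighbouring genes are given as a description, without a test. Subtracting each gene from the one before it array by array gave steps of 0.19 (SE 0.25), 0.20 (SE 0.25), 0.24 (SE 0.18) and 0.13 (SE 0.16). The step from IER3 to VGF was 0.65 (SE 0.13). When each array was left out in turn, EREG ranged from -1.24 to -1.03, HBEGF from -0.59 to -0.41, SPRY4 from -0.87 to -0.65, IER3 from -0.46 to -0.33, IL11 from -1.05 to -0.86 and VGF from 0.24 to 0.32. Without Ctrl 9 and NHE3kd 10 together, the arrays with the highest numbers, EREG was at -1.20, SPRY4 at -0.91 and VGF at 0.33.

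**Figure D2:**
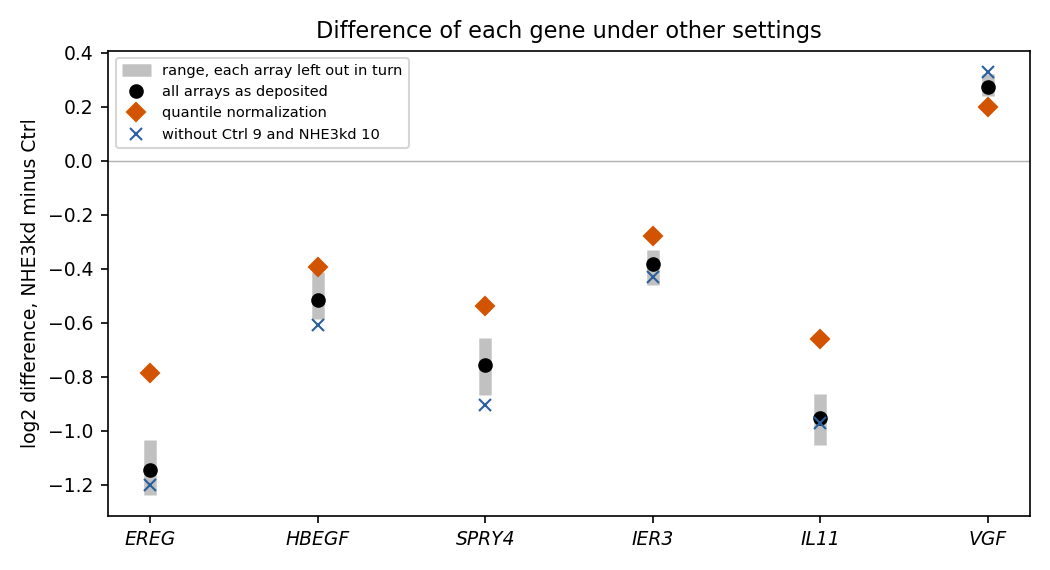
Log2 difference of each gene, NHE3kd minus Ctrl, with all arrays as deposited (black circles), after quantile normalization (orange diamonds) and without Ctrl 9 and NHE3kd 10 (blue crosses). Grey bars span the values with each array left out in turn; the values after quantile normalization lie nearest to 0, with EREG at -0.79.

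By position, EREG lies on chromosome 4 in a cluster with the ligand genes EPGN, AREG and BTC. EPGN, next to EREG on one side, was at -0.0038 (SE 0.031, adjusted p = 0.97 from limma), and BTC, on the other, at -0.038 (SE 0.060, adjusted p = 0.82 from limma). AREG was not analysed here. HBEGF and SPRY4 both lie on chromosome 5. Of the 4 nearest measured genes around SPRY4, 2 on each side, NDFIP1 (-0.48, adjusted p = 0.028), GNPDA1 (-0.51, adjusted p = 0.025) and FGF1 (-0.19, adjusted p = 0.038, all from limma) were lower in NHE3kd cells, whereas 0 of the 4 around HBEGF passed limma's test. Near IER3 the collagen receptor DDR1 was lower (-0.73, adjusted p = 0.013 from limma), and of the 4 measured neighbours of EREG it was PARM1 (-0.87, adjusted p = 0.018 from limma). Over all named genes 4.51% were lower and 14.5% were called in either direction. The measured neighbours of IL11 and VGF did not pass, with adjusted p from 0.13 to 0.97.

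The genes whose 6 values were nearest to those of each gene, by root mean square difference on the log2 scale, were ISG20 (0.088) and MAST4 (0.096) for EREG, OCLNP1 (0.055) and MED10 (0.057) for HBEGF, and ARHGEF37 (0.042) and ANKRD10 (0.043) for SPRY4. They were DUSP22 (0.031) and DALRD3 (0.037) for IER3, MYD88 (0.079) and PINK1 (0.082) for IL11, and ZNF407-AS1 (0.030) and FOXN3-AS1 (0.031) for VGF. None of the 6 genes was among the nearest 2 of another.

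The rest of the pathway was not used to choose the 6 genes and was tested with limma over all 48144 probe sets. The lists were nevertheless drawn up with earlier results of these data known, so their counts are not independent support. Of 113 measured genes in 9 lists, from ligands to ERK targets and the families of IL11 and VGF, 16 (14.2%) were lower and 4 (3.54%) were higher in NHE3kd cells. Among all named genes 14.5% were called, 4.51% lower and 9.96% higher, and among all probe sets 8.74%, with 3.09% lower and 5.65% higher. The median of the 113 was -0.10, beside -0.00082 for all named genes. Without Ctrl 4 the counts were 8 lower and 1 higher, without NHE3kd 3 they were 9 and 1, and without Ctrl 9 they were 21 and 6.

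**Figure D3:**
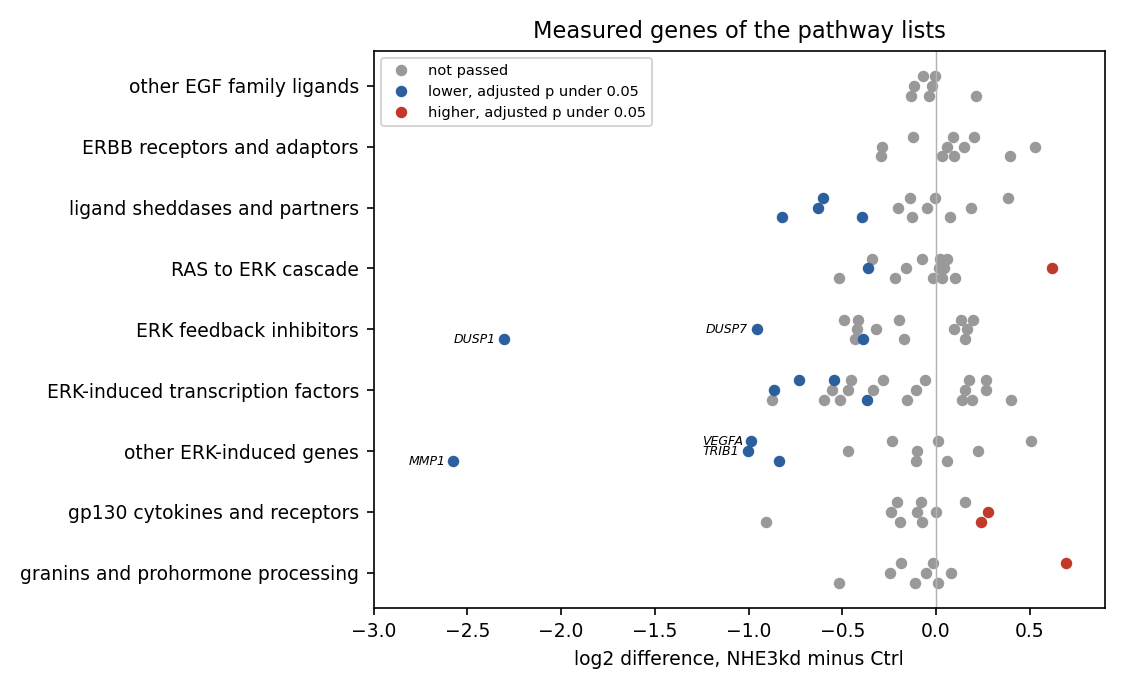
Log2 difference, NHE3kd minus Ctrl, of each of the 113 measured genes in the 9 lists, spread vertically within a list for legibility. Blue points were lower and red points higher at an adjusted p under 0.05 from limma; most calls are lower ones, in the sheddase, feedback and ERK-induced lists, with DUSP1 at -2.30 and MMP1 at -2.57.

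The other ligands of the family were tested, whereas EREG and HBEGF were chosen for their difference and were not. Levels are unknown, so a ligand gene that was not expressed cannot be told from one that did not change. Of 7 measured, 0 were called by limma (1 at an unadjusted p under 0.05). A test with unmoderated variances, called the unmoderated test below, called 0 as well. EGF was at -0.12 (SE 0.056), BTC at -0.038, EPGN at -0.0038 and the neuregulins NRG1, NRG2 and NRG3 at -0.14, -0.071 and -0.023, while the neuregulin NRG4 was at 0.22 (SE 0.071, adjusted p = 0.15 from limma). TGFA and AREG had no named probe set. Of 11 receptors and adaptors 0 were called by limma (2 at an unadjusted p under 0.05, and 0 by the unmoderated test). EGFR was at 0.014, -0.27 and 0.26 on Ctrl 1, 4 and 9 and at 0.50, 0.44 and 0.64 on NHE3kd 2, 3 and 10. The groups did not overlap, with Ctrl 9 and NHE3kd 3 nearest to each other, and the difference of 0.53 (SE 0.14) had an adjusted p of 0.090 from limma. It passed without Ctrl 9 (0.66, adjusted p = 0.038). The kinase-impaired receptor ERBB3 (-0.12) and ERBB4 (0.029) did not pass, nor did the RAS activator SOS1 (0.40, adjusted p = 0.16). ERBB3 was called lower without Ctrl 9 (-0.45, adjusted p = 0.037), the array on which it stood at -0.64, and SOS1 was called higher without Ctrl 1 (0.55, adjusted p = 0.010).

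Of 12 measured genes that release the ligands from the membrane or assist in it, 4 were lower and 8 did not pass. That is 33.3% of the list lower, beside 4.51% lower and 9.96% higher among all named genes. ADAM17, the main sheddase of HB-EGF and epiregulin, was at 0.17, -0.100 and -0.070 on Ctrl 1, 4 and 9 and at -0.87, -0.86 and -0.73 on NHE3kd 2, 3 and 10. Both groups were tight beside the gap between them, and the difference was -0.82 (SE 0.085, adjusted p = 0.0067 from limma), 1.77-fold lower. ADAM9, another membrane protease, fell by 0.63 (SE 0.057, adjusted p = 0.0048), the tetraspanin gene TSPAN8 by 0.60 (SE 0.043, adjusted p = 0.0028) and RHBDF1, which encodes the ADAM17 partner iRhom1, by 0.40 (SE 0.082, adjusted p = 0.042, all from limma). None of the 12 was called higher (1 at an unadjusted p under 0.05), and the median was -0.13. The unmoderated test called 2 of the 4, ADAM9 and TSPAN8, and after quantile normalization TSPAN8 alone was called. ADAM17 had adjusted p = 0.053 from the unmoderated test and 0.13 from limma after quantile normalization. ADAM10 was at -0.051 (adjusted p = 0.88 from limma; named after its value was seen). RHBDF1 lost the call without Ctrl 1, Ctrl 4, NHE3kd 2 or NHE3kd 3 (adjusted p up to 0.14).

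In the cascade from RAS to ERK, 1 gene was higher and 1 lower of 14 measured, with a median of -9.5e-05. Each is 7.14% of the list, beside 9.96% higher and 4.51% lower among all named genes. SHOC2, a scaffold that helps to activate RAF, rose by 0.62 (SE 0.067, adjusted p = 0.0074 from limma). MAPK3, which encodes ERK1, fell by 0.36 (SE 0.053, adjusted p = 0.016 from limma), with Ctrl arrays between -0.015 and 0.012 and NHE3kd arrays between -0.45 and -0.26. When Ctrl 4 or NHE3kd 3 was left out, MAPK3 no longer passed (highest adjusted p 0.072).

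Of the other feedback inhibitors 3 of 15 were lower and 0 higher (6 lower and 1 higher at an unadjusted p under 0.05), with a median of -0.32, and all 3 were phosphatases. The share called lower was 20%, beside 4.51% lower and 9.96% higher among all named genes. DUSP1, which removes phosphate from ERK, p38 and JNK, was at -0.14, 0.12 and 0.015 on Ctrl 1, 4 and 9 and at -2.53, -2.39 and -1.98 on NHE3kd 2, 3 and 10. At 4.93-fold lower (-2.30, SE 0.16, adjusted p = 0.0026 from limma) it stood lower than any of the 6 genes. DUSP7, which acts on ERK, fell by 0.96 (SE 0.18, adjusted p = 0.035), and DUSP8, which acts mainly on JNK and p38, by 0.39 (SE 0.079, adjusted p = 0.041, both from limma). The Sprouty genes SPRY2 (-0.32, SE 0.15, adjusted p = 0.31) and SPRY3 (0.098, SE 0.046, adjusted p = 0.31 from limma) did not pass, and on NHE3kd 10 SPRY2 was at -0.056, within the range of the Ctrl arrays. DUSP6 and DUSP4, both known as close readouts of ERK activity and named here after their values were seen, were at 0.15 (adjusted p = 0.70) and 0.14 (adjusted p = 0.74 from limma), with overlapping groups. The call of DUSP7 rested on every array but Ctrl 9 (adjusted p up to 0.13 when another was left out) and that of DUSP8 on all 6 (up to 0.12), which left DUSP1 alone without Ctrl 1, Ctrl 4 or any NHE3kd array.

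**Figure D4:**
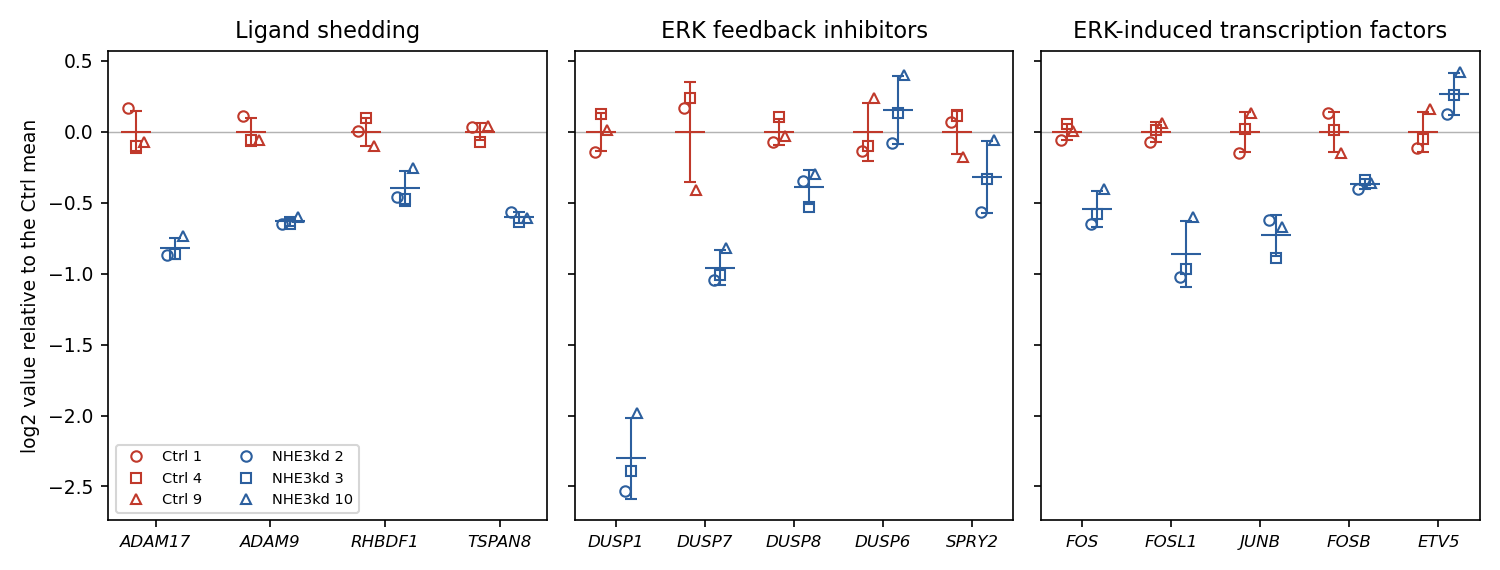
Log2 values relative to the Ctrl mean on the 3 Ctrl arrays (red) and 3 NHE3kd arrays (blue) for genes of ligand shedding, ERK feedback inhibitors and ERK-induced transcription factors, with group means and SD (n = 3). DUSP1 stands lowest, between -2.53 and -1.98 on the NHE3kd arrays, while DUSP6, SPRY2 and ETV5 overlap between the groups.

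At an unadjusted p under 0.05 from limma, 11 of 22 measured transcription factors that ERK induces were lower and 2 higher. The unmoderated test called 0 of them. By limma's adjusted p 4 were lower and 0 higher, with a median of -0.31 for the list. The 4 encode subunits of AP-1, and the other 3 measured genes of the FOS and JUN families, JUN, JUND and FOSL2, did not pass. KLF6, a Krüppel-like factor gene, had the lowest difference of the list (-0.88, SE 0.19) and just missed the threshold (adjusted p = 0.050 from limma). KLF6 and KLF2 (-0.51, adjusted p = 0.063) were called lower with array weights and with named probe sets only, which made the count 6. FOSL1, or FRA1, was at -0.074, 0.010 and 0.064 on Ctrl 1, 4 and 9 and at -1.02, -0.96 and -0.60 on NHE3kd 2, 3 and 10, with NHE3kd 10 apart from the other 2, and fell by 0.86 (SE 0.12, adjusted p = 0.014 from limma). JUNB fell by 0.73 (SE 0.10, adjusted p = 0.015), FOS by 0.54 (SE 0.073, adjusted p = 0.013) and FOSB by 0.37 (SE 0.075, adjusted p = 0.041, all from limma). The ETS factors ETV4 (0.14) and ETV5 (0.27) and the early growth response gene EGR1 (-0.45), named after their values were seen, did not pass (adjusted p = 0.62, 0.21 and 0.18 from limma). Without Ctrl 4 none of the 22 was called (adjusted p up to 0.13 for the 4), without NHE3kd 3 JUNB alone was called, and without Ctrl 9 the count was 7 lower and 1 higher.

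Among other genes known to be induced by ERK, 4 of 12 were lower and 0 higher (5 lower and 0 higher at an unadjusted p under 0.05), with a median of -0.17. The share called lower was 33.3%, beside 4.51% lower and 9.96% higher among all named genes. The collagenase gene MMP1 fell by 2.57 (SE 0.20, adjusted p = 0.0035), with NHE3kd arrays at -2.27, -2.44 and -3.01. TRIB1, a pseudokinase that promotes protein degradation, fell by 1.00 (SE 0.11, adjusted p = 0.0071), the angiogenic factor VEGFA by 0.99 (SE 0.11, adjusted p = 0.0075) and the ephrin receptor EPHA2 by 0.84 (SE 0.072, adjusted p = 0.0043, all from limma). These 4 calls held without any single array. However, TRIB1 and VEGFA lost theirs with the unmoderated test (adjusted p = 0.055 and 0.056) and after quantile normalization (0.18 and 0.17 from limma). The cyclin gene CCND1, named after its value was seen, was at 0.22 (adjusted p = 0.26 from limma).

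The families of IL11 and VGF held 3 calls, all higher, while the medians of both lists were below 0 (-0.081 and -0.053). The shares called higher were 18.2% and 11.1%, beside 9.96% of all named genes. Of 11 cytokines, receptors and mediators of the gp130 family 2 were higher and 0 lower (3 lower at an unadjusted p under 0.05). STAT3, the transcription factor downstream of gp130, rose by 0.28 (SE 0.054, adjusted p = 0.036), and LIFR, the receptor of leukaemia inhibitory factor, by 0.24 (SE 0.051, adjusted p = 0.046, both from limma). Of 9 genes of granins and prohormone processing, CPE, the carboxypeptidase that trims prohormones, rose by 0.69 (SE 0.13, adjusted p = 0.032 from limma) and 0 were lower (3 lower at an unadjusted p under 0.05), among them the granin gene CHGB at -0.19 (adjusted p = 0.087). IL6R, the interleukin-6 receptor gene, was at -0.91 (adjusted p = 0.066) and the cytokine gene CTF1 at -0.24 (adjusted p = 0.063, both from limma); both were called lower with array weights and with named probe sets only, which made the gp130 count 2 higher and 2 lower. The 3 calls rest on most of the arrays, and none was kept with the unmoderated test or after quantile normalization. STAT3 lost it without any array except NHE3kd 2 (adjusted p up to 0.12), LIFR without any array (0.16) and CPE without any array except Ctrl 9 (0.11).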

How the data were processed

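Total RNA of 3 Ctrl and 3 NHE3kd samples had been hybridized to Affymetrix Human Gene 2.0 ST arrays. Probe summaries were made by the authors (RMA16, GeneSpring GX), who then centred each probe set on its Ctrl mean, and the deposited values are log2 differences for 48144 probe sets. The submitters' processing notes name hg19 as the build, and the sources used here do not give the software version. This centring removes the level of each probe set, so no filter on dim probe sets was possible, and the number of arrays limits the precision.

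Probe sets were named from the annotation of the platform and updated to RefSeq symbols, which gave 1 symbol for 16098 probe sets and none for 32046. The mean was taken over a gene's probe sets. The test was two-sided, from lmFit and eBayes of limma 3.58.1 under R 4.3.3, on all 6 arrays without covariates, and p-values were adjusted by Benjamini and Hochberg's method across every probe set, at a threshold of 0.05. For a mean of several probe sets, the variance was moderated by the prior estimated from all probe sets, and the p was adjusted by their curve. The 6 genes themselves were not tested; their SE comes from the pooled variance of the groups. The fitting step was tested on simulated data. The 6 genes, the lists and the tests were chosen with earlier results of these data known. In each list the text names up to 4 genes with the smallest p among those that passed, or the 2 with the smallest p where fewer than 2 passed, and every measured ligand, ERBB receptor, Sprouty gene and ERK. Alternatives were the unmoderated test, array weights, equal medians, quantile normalization, named probe sets only, a fold of 1.5, and arrays left out. The paper's methods name a normalized test, and a figure legend of the paper names a moderated one. Counting identical probe sets once was added after the data had been seen.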

Additional observations from a re-analysis of the deposited data

How the results depend on the processing

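Quantile normalization gives all arrays the same distribution. The SD over probe sets was 0.10 to 0.14 on the centred Ctrl arrays and 0.31 to 0.33 on the NHE3kd arrays. The procedure therefore widens the Ctrl values and narrows the NHE3kd values, which by itself shrinks differences. It moved EREG to -0.79, SPRY4 to -0.54, IL11 to -0.66 and VGF to 0.20. Of the pathway genes, 5 were lower and 0 higher with the unmoderated test and again after quantile normalization. Without Ctrl 9 and NHE3kd 10, 0 were higher, and 2 were higher when a 1.5-fold change was required. Leaving out each array in turn gave 8 to 21 lower and 1 to 6 higher. Over all probe sets 4206 were called, 840 with that t-test, 478 after quantile normalization, 2024 without Ctrl 9 and NHE3kd 10, 2042 at 1.5-fold or more, and 1685 to 3682 with each array left out. TSPAN8, DUSP1, MMP1 and EPHA2 were called in all 12 alternative settings run on single genes. No paired analysis was possible because the groups share no replicate number. Signal over background is unknown.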
